A study of Homo sapiens with 8 samples.

Results

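Insulin-like growth factors (IGFs) and their binding proteins were examined in the RNA-seq of HuH7 cells, a human hepatoma-derived line, by the symbols IGF1, IGF2, IGFBP1, IGFBP2, IGFBP3, IGFBP4, IGFBP6, IGFBP7 and IGFALS. All 9 symbols were among the 15745 genes of the count table, and 7 of them were among the 12910 genes with enough reads to be tested. Wildtype HuH7 cells were kept for 6 h in glucose-free medium at 1% oxygen and then for 6 h in normal oxygen (oxygen-glucose deprivation and reperfusion, OGD/R). During the last 6 h the medium contained either DMSO, the solvent (I/R+DMSO, 4 libraries), or 20 µM ginsenoside Rk2 (I/R+Rk2, 4 libraries). All 8 libraries had thus gone through OGD/R, and the comparison asks how these genes differed with Rk2 during reoxygenation. The labels do not say whether the libraries came from separate cultures, so p-values measure the spread between these libraries, which may be technical. In bulk RNA, fewer cells and less RNA per cell cannot be told apart.

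IGF1 and IGF2 are small secreted hormones that resemble insulin. They act through the receptor tyrosine kinase IGF1R and, for IGF2, the insulin receptor, and signal onward to PI3K and AKT. In blood and tissue most IGF is held by binding proteins (IGFBPs), which carry it, keep it from its receptors or release it when proteases cut them. The liver is the main source of circulating IGF1, IGFALS and IGFBP1, and liver tumor lines often make IGF2.

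The binding proteins share a cysteine-rich region near the amino end that holds IGF. IGFBP6 departs from its relatives in that region, and the coding sequences are shown here for that difference. A link between these sequences and the mRNA levels below was not tested. Each line gives 27 bases of coding sequence (9 codons), read 5′ to 3′ on the coding strand from the GRCh38 genome and the GENCODE v29 annotation. The capitals mark the cysteine codons (TGC or TGT).

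IGFBP1: ggcTGCggcTGTTGCccgatgTGCgcc
IGFBP2: ggcTGCggcTGCTGCtcggtgTGCgcc
IGFBP3: ggcTGCggcTGCTGCctgacgTGCgca
IGFBP4: ggcTGCggcTGTTGCgccactTGCgcc
IGFBP6: ggcTGCgcggaagctgagggcTGTctc
IGFBP7: gcgTGCggcTGCTGCcctatgTGCgcc

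IGFBP1, IGFBP2, IGFBP3, IGFBP4 and IGFBP7 each carry 4 cysteine codons in this stretch, and IGFBP6 carries 2. The stretches lie at chr7:45888818-45888844 on the plus strand for IGFBP1, chr2:216633770-216633796 (plus) for IGFBP2, chr7:45920919-45920945 (minus) for IGFBP3, chr17:40443889-40443915 (plus) for IGFBP4, chr12:53097883-53097909 (plus) for IGFBP6 and chr4:57110160-57110186 (minus) for IGFBP7. IGFBP1 and IGFBP3 are neighbours on chromosome 7, on opposite strands, with 18576 bases between them. These are reference sequences and were not read from the libraries.

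Library totals were 18428485 to 21447045 counts with DMSO and 16374082 to 30310479 with Rk2. Levels below are TMM-normalized CPM, the reads of a gene relative to all reads of its library, unless FPKM, the deposited value per gene length, is named. The first principal component of all tested genes held 39.1% of the variance and separated the groups, and on the second, which held 15.9%, I/R+DMSO replicate 1 stood at 78.7 against -48.6 to -41.4 for the other I/R+DMSO libraries. The label of the cells was checked on 13 hepatocyte and hepatoma genes, all of which passed the count filter. Their summed FPKM was 5534 to 6142 with DMSO and 5910 to 6056 with Rk2, led by AFP with a mean of 2369 and ALB with 998 with DMSO. Of the 13, APOB rose (log2 fold change 0.61, adjusted p = 0.0124 in edgeR) and FGA (-0.34, adjusted p = 0.00386) and FGB (-0.27, adjusted p = 0.0462) fell. DESeq2 also called FGB. The FGB call was lost with limma on log2(FPKM + 1), after a correction for gene length and without I/R+DMSO replicate 1. DESeq2 called APOA1 in addition, and the length correction called APOA2. Of the markers of other cell types, VWF, CDH5 and KDR of endothelium, PTPRC of leukocytes and DCN of fibroblasts were listed at 0 FPKM in every library. Other genes of these lists were present. CD68 was at a mean of 30.7 FPKM with DMSO and 28.7 with Rk2, and COL1A2 at 4.92 and 4.48. PECAM1 was at 1.46 and 1.59, PDGFRB at 0.592 and 0.619, LUM at 0.427 and 0.457 and COL3A1 at 0.154 and 0.153. None of these genes passed the test. COL1A1, below the count filter, was at 0 to 0.457 FPKM with DMSO and 0.478 to 0.684 with Rk2. CD3E was at 0 FPKM except in I/R+DMSO replicate 1. The summed FPKM of the 6 fibroblast markers was 5.66 to 7.17 with DMSO and 5.56 to 6.96 with Rk2, that of the 4 endothelial markers 1.07 to 1.87 and 1.11 to 2.10, and that of the 4 leukocyte markers 27.2 to 32.7 and 24.2 to 32.7. CD14, a leukocyte marker with few counts, fell from 0.802 to 0.341 CPM (adjusted p = 0.0430 in edgeR) and from 0.348 to 0.140 FPKM. DESeq2 did not make this call, and it was lost without I/R+DMSO replicate 1. The counts of CD14 were 16, 11, 13 and 24 with DMSO and 7, 5, 6 and 10 with Rk2. It thus passed the filter of 10 counts through the group where it was higher, which limits what the call can show. The part of CD14 in the results below was not tested.

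Among the IGF genes 1 of 7 passed the test with Rk2, next to 18.2% of all tested genes, and that gene is expressed at a low level. Across all genes, 18.2% of the 12910 tested genes differed between the groups at an adjusted p below 0.05 (edgeR's quasi-likelihood test with Benjamini-Hochberg adjustment). Of the 7 tested IGF genes 1 did, IGFBP6, which was lower with Rk2, where 7.24% of all genes were called lower. None was called higher with edgeR, where 11.0% of all genes were called higher. DESeq2 also called 0 higher, and it called 2 lower, IGFBP3 and IGFBP6, where it called 2973 of the 12910 genes in either direction. At an unadjusted p below 0.05 in edgeR there were 4 of the 7, next to 4452 of the 12910 tested genes. Of these 4, only IGFBP1 was higher. In 3 of the 7, IGFBP3, IGFBP4 and IGFBP6, every I/R+Rk2 library was below every I/R+DMSO library, a pattern seen in 12.9% of all tested genes. The opposite pattern was seen in 0 of the 7 and in 1987 of the 12910 tested genes. IGFBP6 entered the test through the group where it was higher, which limits what its place in these counts can show. The median log2 fold change of the 7 genes was 0.00, as it was over all tested genes.

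**Figure D1:**
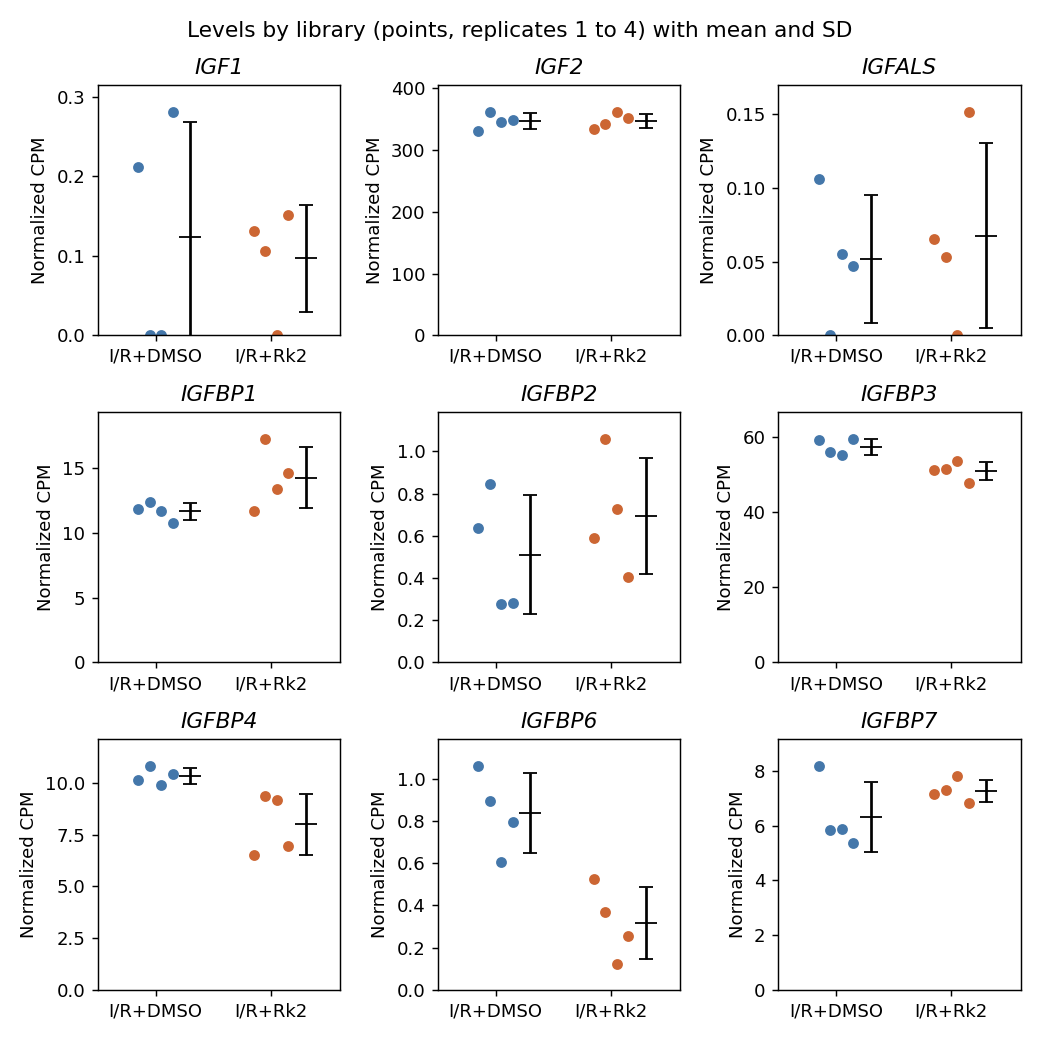
Normalized CPM of the 9 IGF genes by library on linear axes that start at 0, with points for replicates 1 to 4 of I/R+DMSO (blue) and I/R+Rk2 (orange) and the mean with 1 SD in black. IGF2 was near 347 CPM in both groups, and the groups do not overlap for IGFBP3, IGFBP4 and IGFBP6.

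IGF2, the fetal growth factor that many hepatomas express, was the most abundant member and did not pass the test. The 4 I/R+DMSO libraries had 332, 362, 346 and 349 CPM, and the 4 I/R+Rk2 libraries had 335, 342, 361 and 352 CPM. The groups covered the same range, with means of 347 ± 12.5 CPM (SD, n = 4) and 347 ± 11.4 CPM (SD, n = 4). The log2 fold change was 0.00 (standard error 0.0405, adjusted p = 0.981 in edgeR), and its 95% interval ran from -6.11% to 6.80% of the I/R+DMSO level. With this normalization the data thus leave room only for small changes of IGF2 mRNA. A correction for gene length lowered the value to -0.13 (adjusted p = 0.0511 in edgeR). IGF2 lies at chr11:2129112-2149603 on the minus strand. The annotation holds another gene entry with the symbol IGF2, at chr11:2129112-2158658 on the same strand, whose exons overlap those of the first. The exons of IGF2 also overlap those of the readthrough gene INS-IGF2 and of AC132217.1 on the same strand and of IGF2-AS on the other. Reads could thus be shared between these entries. INS-IGF2 itself had 0 to 4 counts per library.

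IGF1, the growth hormone-dependent factor of normal liver, was at the limit of detection. It had 4, 0, 0 and 6 counts with DMSO and 4, 2, 0 and 3 counts with Rk2 (exact two-sided permutation test, p = 0.8286). IGFALS, the acid-labile subunit that holds IGF and IGFBP3 in a long-lived complex in blood, had 2, 0, 1 and 1 counts with DMSO and 2, 1, 0 and 3 counts with Rk2 (exact two-sided permutation test, p = 0.714). Both genes were below the count filter. The limit set by 3 counts was 0.0983 to 0.181 CPM per library, counting error only, so no fold change is given for either. IGF1 lies at chr12:102395874-102481744 (minus) and IGFALS at chr16:1790413-1794971 (minus), where its exons overlap those of SPSB3 on the same strand.

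IGFBP6, a binding protein that prefers IGF2 over IGF1, was called lower with Rk2. Its levels were 1.06, 0.895, 0.606 and 0.797 CPM with DMSO and 0.524, 0.371, 0.121 and 0.253 CPM with Rk2. Every I/R+Rk2 library was below the lowest I/R+DMSO library, and the means were 0.840 ± 0.191 CPM (SD, n = 4) and 0.317 ± 0.172 CPM (SD, n = 4). The log2 fold change was -1.31 (standard error 0.383, 95% interval -2.19 to -0.43, adjusted p = 0.0481 in edgeR), or 0.403 times the I/R+DMSO level. IGFBP6 is also the tested binding protein with the fewest reads with Rk2. The counts were 20, 19, 11 and 17 with DMSO and 16, 7, 2 and 5 with Rk2, 67 and 30 in all. All I/R+DMSO libraries reached the 10 counts of the filter, but with Rk2 only replicate 1, the deepest library, did. The gene thus entered the test through the group where it was higher, which limits what the call can show. Taken per library size, the pooled ratio was 0.416, with an exact binomial 95% interval of 0.261 to 0.648 that covers counting error only. The FPKM was 0.571 ± 0.136 with DMSO and 0.218 ± 0.127 with Rk2 (SD, n = 4 each), and there too the groups did not overlap. The call was lost without any 1 library other than I/R+Rk2 replicate 1, with adjusted p up to 0.114 in edgeR, while the log2 fold change stayed between -1.71 and -1.08. IGFBP6 lies at chr12:53097436-53102345 (plus).

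IGFBP3, the main carrier of IGF in blood, was the most abundant binding protein and lay just short of the threshold. Its levels were 59.2, 56.0, 55.4 and 59.6 CPM with DMSO and 51.2, 51.5, 53.7 and 47.7 CPM with Rk2. The groups did not overlap, and the means were 57.5 ± 2.15 CPM (SD, n = 4) and 51.0 ± 2.45 CPM (SD, n = 4). The log2 fold change was -0.17 (standard error 0.0520, unadjusted p = 0.00994 and adjusted p = 0.0527 in edgeR), a difference of -11.3% with a 95% interval of -18.3% to -3.66%. DESeq2 placed it past the threshold with nearly the same fold change (adjusted p = 0.0191). In FPKM the groups overlapped, with 22.7 to 24.6 with DMSO and 19.7 to 23.2 with Rk2. IGFBP3 lies at chr7:45912245-45921874 (minus).

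IGFBP4, which holds IGF away from its receptors until the protease PAPPA cuts it, had 10.1, 10.8, 9.92 and 10.5 CPM with DMSO and 6.52, 9.38, 9.19 and 6.98 CPM with Rk2. The I/R+DMSO libraries were close together, and the I/R+Rk2 libraries were all lower but spread into a lower and a higher pair, with means of 10.3 ± 0.397 and 8.02 ± 1.48 CPM (SD, n = 4 each). The log2 fold change was -0.37 (standard error 0.130, unadjusted p = 0.0207 and adjusted p = 0.0817 in edgeR), a difference of -22.7% with a 95% interval of -37.1% to -4.92%. None of the 18 alternative settings placed IGFBP4 past the threshold, and none changed its direction. IGFBP4 lies at chr17:40443461-40457731 (plus).

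IGFBP1, the binding protein that insulin represses and that hypoxia, amino acid lack and FOXO factors induce in hepatocytes, did not pass the test. It had 11.8, 12.4, 11.7 and 10.8 CPM with DMSO and 11.7, 17.3, 13.4 and 14.7 CPM with Rk2. I/R+Rk2 replicates 2, 3 and 4 were above all I/R+DMSO libraries, while replicate 1 lay among them. The log2 fold change was 0.29 (standard error 0.119, 95% interval 0.01 to 0.56, unadjusted p = 0.0415 and adjusted p = 0.128 in edgeR). The value depended on single libraries: leaving out I/R+Rk2 replicate 2 gave 0.18 (adjusted p = 0.251 in edgeR), and leaving out replicate 1 of that group gave 0.37 (adjusted p = 0.0564). IGFBP1 lies at chr7:45888357-45893668 (plus).

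IGFBP7, which binds IGF weakly and insulin as well and is found in vessel walls and matrix, had 8.18, 5.84, 5.89 and 5.35 CPM with DMSO and 7.17, 7.31, 7.80 and 6.83 CPM with Rk2. I/R+DMSO replicate 1, the library that stood apart over all genes, was above every I/R+Rk2 library, and the other 3 I/R+DMSO libraries were below every one. With all libraries the log2 fold change was 0.21 (standard error 0.138, adjusted p = 0.330 in edgeR), and without I/R+DMSO replicate 1 it was 0.35 (adjusted p = 0.0330). Without that library IGFBP7 was the only IGF gene past the threshold, since IGFBP6 then had an adjusted p of 0.0997 in edgeR. IGFBP7 lies at chr4:57030773-57110385 (minus), and on the other strand its exons overlap those of IGFBP7-AS1 and POLR2B, whose reads cannot be told apart without strand.

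IGFBP2, a binding protein of fetal liver and of many tumors, was barely detected. It had 12, 18, 5 and 6 counts with DMSO and 18, 20, 12 and 8 counts with Rk2, and the groups overlapped. The means were 0.510 ± 0.281 and 0.695 ± 0.276 CPM (SD, n = 4 each), with a log2 fold change of 0.42 and a 95% interval of -0.61 to 1.45 (adjusted p = 0.553 in edgeR). With 1 library left out the value ran from 0.15 (without I/R+Rk2 replicate 2) to 0.79 (without I/R+DMSO replicate 2). The depth thus allowed both a fall and a rise of IGFBP2. In FPKM the groups did not overlap, with 0.0465 to 0.152 with DMSO and 0.201 to 0.426 with Rk2, and the limma fit of unfiltered log2(FPKM + 1) had an adjusted p of 0.0987. The counts and the FPKM of this gene therefore gave different pictures of the spread. IGFBP2 lies at chr2:216632828-216664436 (plus).

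**Figure D2:**
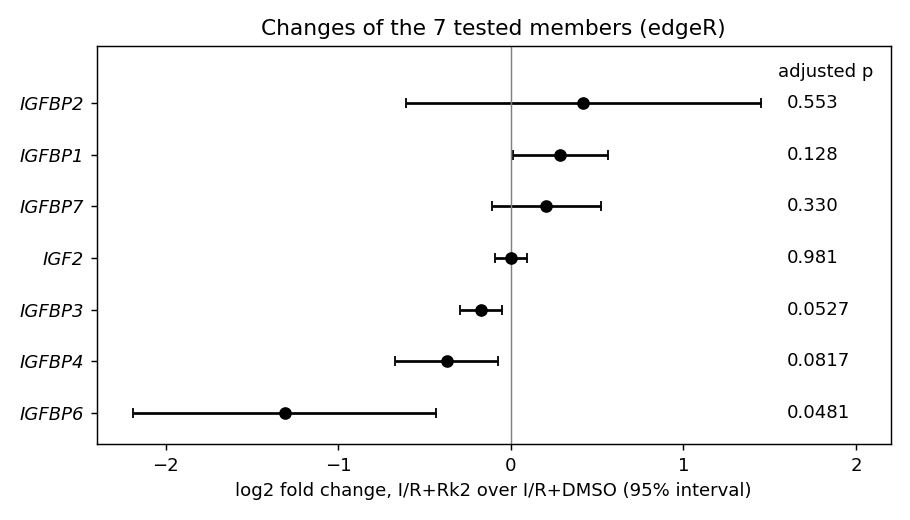
Log2 fold changes of the 7 tested IGF genes (x axis, I/R+Rk2 over I/R+DMSO, n = 4 libraries each) with 95% intervals from edgeR, sorted by fold change, with adjusted p at the right. The intervals of IGFBP6, IGFBP4 and IGFBP3 lie below 0 and that of IGFBP1 just above it, and the interval of IGF2 is the narrowest.

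The order of the transcripts per length was read from FPKM. In I/R+DMSO it was IGF2 (66.2 ± 5.14 FPKM), IGFBP3 (23.5 ± 0.821), IGFBP1 (5.99 ± 0.392), IGFBP4 (3.87 ± 0.174), IGFBP7 (3.64 ± 0.690), IGFBP6 (0.571 ± 0.136), IGFBP2 (0.106 ± 0.0440), IGF1 and IGFALS (SD, n = 4). IGFBP4 and IGFBP7 overlapped, as did IGF1 and IGFALS, and IGF1 was listed at 0 in 2 libraries of this group. In I/R+Rk2, IGFBP7 (4.30 ± 0.233 FPKM) was above IGFBP4 (3.07 ± 0.582) in every library, with 4.07 to 4.61 against 2.47 to 3.59. IGFBP6 (0.218 ± 0.127 FPKM) and IGFBP2 (0.267 ± 0.106), which did not overlap with DMSO, overlapped with Rk2. IGFBP5, a binding protein outside these 9, was listed at 0 FPKM in all 8 libraries.

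**Figure D3:**
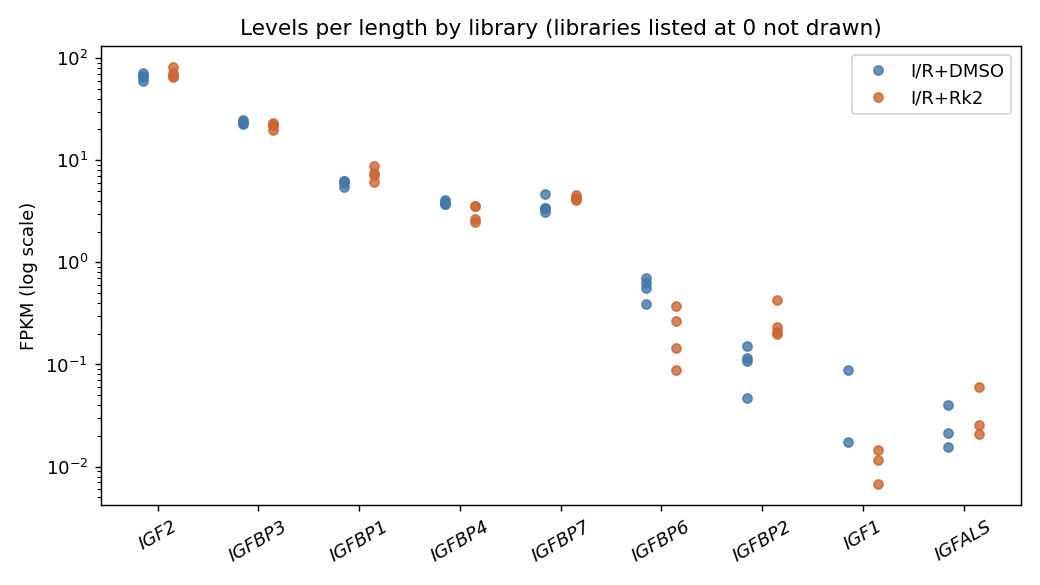
FPKM of the 9 IGF genes by library on a log axis, sorted by the I/R+DMSO mean, with blue points for I/R+DMSO and orange points for I/R+Rk2; libraries listed at 0 are not drawn. IGF2 and IGFBP3 lead in both groups, IGFBP7 is above IGFBP4 with Rk2, and the ranges of IGFBP6 and IGFBP2 overlap with Rk2.

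The 6 binding proteins together gave 37.7 ± 1.16 FPKM with DMSO and 37.0 ± 2.07 FPKM with Rk2 (SD, n = 4 each), and the groups overlapped. IGFBP3 made up 62.4% ± 1.81 of the sum with DMSO and 58.8% ± 3.24 with Rk2. The share of IGFBP1 was 14.9% to 16.7% with DMSO and 16.7% to 22.5% with Rk2, where I/R+Rk2 replicate 1 was barely above the highest I/R+DMSO library. The share of IGFBP4 was 10.3% ± 0.418 and 8.26% ± 1.22, and that of IGFBP7 was 9.66% ± 1.78 and 11.6% ± 0.484. IGF2 was 1.76 ± 0.121 times the binding protein sum with DMSO and 1.92 ± 0.229 times with Rk2. These shares are descriptions and were not tested.

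The genes whose libraries ran most like those of the 3 IGF genes with the smallest p were found from the root-mean-square difference in log2 CPM over the 8 libraries, each gene taken relative to its I/R+DMSO mean, among 12188 to 12189 genes with a mean of at least 1 CPM. For IGFBP6 the nearest were LYL1 (0.408), NPPB (0.413), LINGO1 (0.455), OLR1 (0.468) and JMJD7 (0.486). For IGFBP3 they were LCMT2 (0.0151), DHX16, GOT2, FBXL19 and JUNB (0.0369), and for IGFBP4 they were HDHD2 (0.0717), ZC3H4, ECH1, LSM1 and LMCD1 (0.108). The distances were much smaller for IGFBP3 than for IGFBP6, whose libraries held few counts. The likeness is a description over libraries that share their depth and treatment.

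Around these 9 genes, 73 further genes of the IGF system were listed by role, of which 56 were tested. With edgeR 12 were higher and 3 lower with Rk2, 41 did not pass, and their median log2 fold change was 0.06. The share called was thus 15 of 56, next to 18.2% of all tested genes. The lists were made with earlier results of these data known.

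Of the 9 tested receptors and adaptors 4 rose and 1 fell, next to 11.0% and 7.24% of all tested genes. After a correction for gene length 2 were higher and 2 lower, and with limma on log2(FPKM + 1) 1 was higher and 0 lower. Over all genes the length correction called 2270 of 12898 and this limma fit 1123 of 11852, in either direction. IGF1R, the signaling receptor, had 107 ± 11.9 CPM with DMSO and 113 ± 3.82 CPM with Rk2, a log2 fold change of 0.09 that did not pass (adjusted p = 0.467 in edgeR). With the correction for gene length its value turned to -0.18 (adjusted p = 0.0311). IGF2R, which takes up and degrades IGF2 and sorts lysosomal enzymes, had 285, 363, 374 and 368 CPM with DMSO and 435, 453, 466 and 494 CPM with Rk2. It rose in all I/R+Rk2 libraries, by 0.41 on the log2 scale (standard error 0.0881, adjusted p = 0.0168 in edgeR). INSR, the insulin receptor, had 63.7, 72.5, 66.5 and 47.2 CPM with DMSO and 80.5, 82.2, 88.0 and 93.5 CPM with Rk2, which is 0.46 as log2 fold change (adjusted p = 0.0369 in edgeR).

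Both receptor calls were lost with a correction for gene length. Over all genes, longer genes had higher log2 fold changes (Spearman's rho 0.388 across 12898 genes, which are not independent replicates). After the length correction IGF2R was at 0.12 (adjusted p = 0.157 in edgeR) and INSR at 0.24 (adjusted p = 0.302). INSR was past the threshold in 7 of 18 alternatives and IGF2R in 13 of 18. INSR lost its call without any 1 library other than I/R+DMSO replicates 2 and 4 (adjusted p up to 0.0969 in edgeR), and IGF2R lost it without I/R+Rk2 replicate 4 (adjusted p = 0.0526).

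IRS2, the docking protein that links insulin and IGF receptors to PI3K and that insulin represses in liver, also rose. It had 18.1 to 20.7 CPM with DMSO and 26.5 to 31.1 CPM with Rk2 (4 libraries each), and the log2 fold change was 0.60 (standard error 0.0712, adjusted p = 0.00168 in edgeR). It passed in 18 of 18 alternatives, with 0.36 after the length correction (adjusted p = 0.0157). GRB10, an adaptor that damps both receptors, rose by 0.26 on the log2 scale (adjusted p = 0.0185 in edgeR), and SHC1, the adaptor toward the RAS pathway, fell from 179 ± 6.37 to 150 ± 6.67 CPM (SD, n = 4 each; log2 fold change -0.25, adjusted p = 0.00827 in edgeR). GRB10 passed in 13 of 18 alternatives, with 0.17 after the length correction, and was lost in the 3 limma fits on FPKM and without I/R+Rk2 replicate 3 or 4 (adjusted p up to 0.0555 in edgeR), and SHC1 passed in 15 of 18 and was lost in the limma fits. IRS1 did not pass (log2 fold change 0.27, adjusted p = 0.0941 in edgeR).

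Among 9 tested proteases that cut binding proteins and their inhibitors, 2 rose and 0 fell, again next to 11.0% and 7.24% of all tested genes. STC2, the secreted stanniocalcin that blocks PAPPA and PAPPA2, had 52.0, 52.8, 55.2 and 50.5 CPM with DMSO and 149, 148, 153 and 149 CPM with Rk2. The groups were far apart, at 2.85 times the I/R+DMSO level, and the log2 fold change was 1.51 (standard error 0.0401, adjusted p = 1.9e-06 in edgeR). This was the largest change among all tested IGF system genes, and it passed in 18 of 18 alternatives. PAPPA and PAPPA2 themselves, proteases that cut binding proteins, were near 1 CPM or below and did not pass, at -0.07 (adjusted p = 0.910 in edgeR) and 0.32 (adjusted p = 0.404). ADAM9, a membrane metalloprotease, had 235, 272, 266 and 298 CPM with DMSO and 328, 333, 332 and 337 CPM with Rk2, which is 0.31 as log2 fold change (adjusted p = 0.0161 in edgeR).

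Of 3 tested genes with an IGF-binding domain outside the IGFBP family (KAZALD1, HTRA3 and CRIM1), of 4 precursor convertases (FURIN, PCSK5, PCSK6 and PCSK7) and of 3 RNA-binding proteins of IGF2 mRNA (IGF2BP1, IGF2BP2 and IGF2BP3), 0 passed with edgeR or DESeq2. At an unadjusted p below 0.05 in edgeR the counts were 1, 0 and 0. Of all 12910 tested genes, 4452 were below 0.05 unadjusted and 18.2% passed in edgeR. The length correction called FURIN (-0.17, adjusted p = 0.0182 in edgeR) and IGF2BP1 (-0.20, adjusted p = 0.0181) lower, and FURIN was also called lower without I/R+DMSO replicate 1 (-0.14, adjusted p = 0.0368). The log2 fold changes of IGF2BP1, IGF2BP2 and IGF2BP3 were 0.04, 0.06 and 0.12. H19, the noncoding neighbour of IGF2, and IGF2-AS were listed but had no value in the counts or the FPKM used here.

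Of 10 tested genes of the growth hormone axis 1 rose and 1 fell (11.0% and 7.24% of all tested genes). PRLR, the prolactin receptor, rose from 9.11 ± 1.06 to 14.7 ± 0.939 CPM (SD, n = 4 each; log2 fold change 0.68, adjusted p = 0.00349 in edgeR). SOCS3, an inhibitor of cytokine and insulin receptor signaling, fell from 4.09 ± 0.134 to 2.49 ± 0.186 CPM (SD, n = 4 each; log2 fold change -0.71, adjusted p = 0.00355 in edgeR). GHR, the receptor through which growth hormone induces IGF1, did not pass (log2 fold change 0.18, adjusted p = 0.434 in edgeR). After the length correction PRLR was at 0.39 (adjusted p = 0.00389 in edgeR), and 3 genes of this axis were lower, SOCS3, STAT5B (-0.18, adjusted p = 0.0461 in edgeR) and PTPN1 (-0.20, adjusted p = 0.00939). Over all genes this correction called 2270 of 12898 in either direction.

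Of 12 tested regulators of IGFBP1 transcription 3 rose and 0 fell with edgeR, where 11.0% and 7.24% of all tested genes did, and DESeq2 called USF1 lower in addition. HIF1A, the hypoxia factor, rose from 219 ± 9.10 to 288 ± 6.59 CPM (SD, n = 4 each; log2 fold change 0.40, adjusted p = 0.000855 in edgeR). ATF4, the factor of the amino acid and stress response, rose from 514 ± 35.9 to 693 ± 13.4 CPM (SD, n = 4 each; log2 fold change 0.43, adjusted p = 0.00185 in edgeR). FOXO3, a forkhead factor that AKT keeps out of the nucleus, rose from 31.3 ± 3.21 to 46.3 ± 4.11 CPM (SD, n = 4 each; log2 fold change 0.56, adjusted p = 0.00604 in edgeR). The length correction lowered FOXO3 to 0.34 (adjusted p = 0.00843 in edgeR). In all 3, every I/R+Rk2 library was above every I/R+DMSO library, a pattern seen in 1987 of the 12910 tested genes. In 1 of the 12, USF1, every I/R+Rk2 library was below, a pattern seen in 12.9% of all tested genes. HIF1A, ATF4 and FOXO3 passed in 18 of 18 alternatives. IGFBP1 itself passed in 0 of 18, and its value was higher with Rk2 in all 18. FOXA2, named after its values were seen, varied from 4.85 to 94.5 CPM within I/R+DMSO and from 12.2 to 95.5 CPM within I/R+Rk2. It did not pass (adjusted p = 0.787 in edgeR).

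Of 8 tested genes that FOXO factors induce or insulin represses in liver 4 rose and 1 fell, against 11.0% and 7.24% of all tested genes. Besides IRS2 and INSR, CAT, which encodes catalase, rose by 0.20 on the log2 scale (adjusted p = 0.00795 in edgeR), and PPARGC1A, a coactivator of gluconeogenic genes, rose by 1.18 (adjusted p = 0.0299 in edgeR), the latter at 0.610 to 3.51 CPM per library and past the threshold in 8 of 15 alternatives. TXNIP, which restrains glucose uptake, fell from 56.7 ± 2.08 to 35.2 ± 1.42 CPM (SD, n = 4 each; log2 fold change -0.69, adjusted p = 0.000203 in edgeR). PCK1, the gluconeogenic enzyme, was at 0.731 ± 0.204 and 1.42 ± 0.422 CPM (SD, n = 4 each) and did not pass (log2 fold change 0.92, adjusted p = 0.0616 in edgeR). Without I/R+DMSO replicate 1, and likewise after the length correction, 2 of the 8 rose, IRS2 and CAT, and TXNIP fell. Over all genes these fits called 2193 of 12830 and 2270 of 12898, in either direction. IRS2 and INSR also stand in the receptor list, so the lists are not independent of each other.

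**Figure D4:**
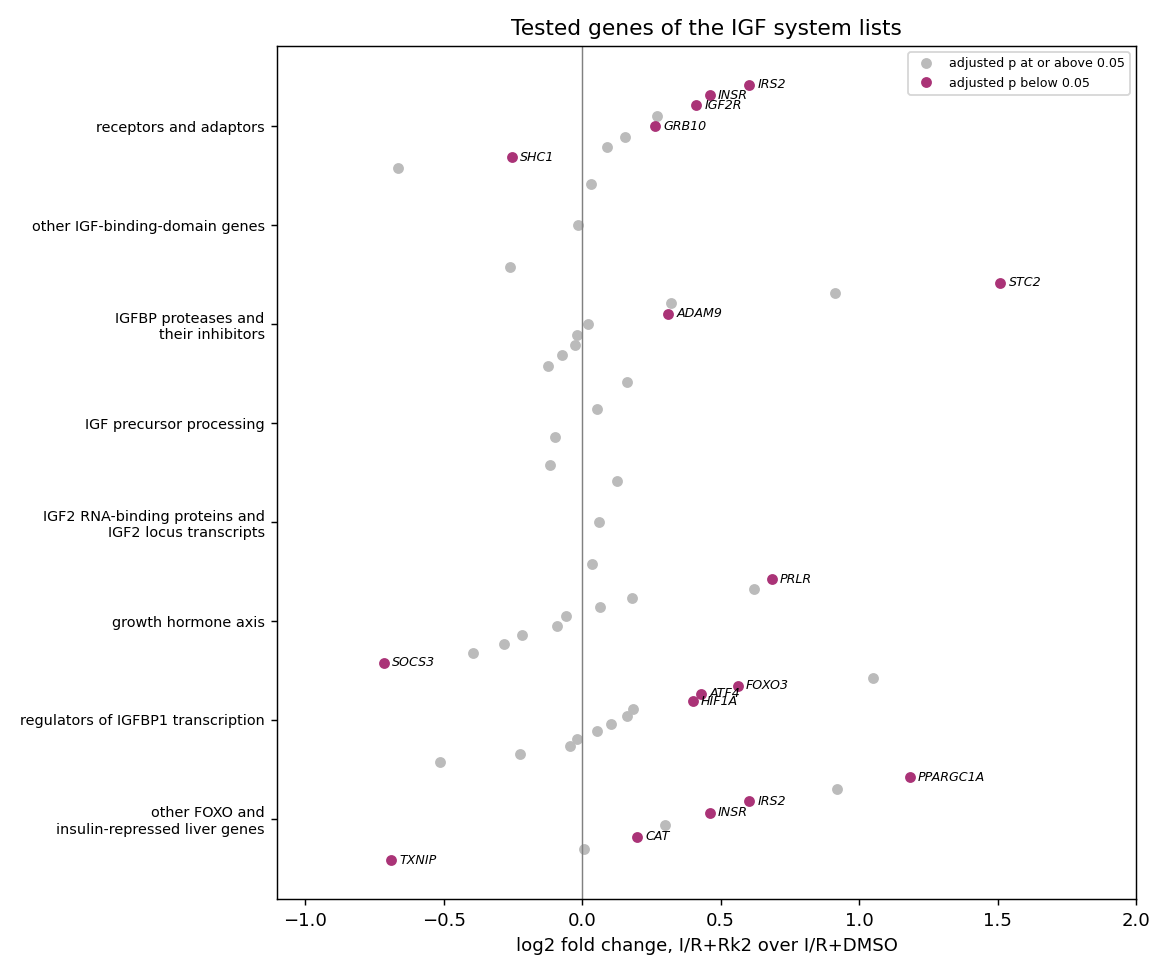
Log2 fold changes (x axis, I/R+Rk2 over I/R+DMSO) of the tested IGF system genes in their 8 lists (y axis), 1 point per gene, with genes past an adjusted p of 0.05 in edgeR in purple and named, and the others in gray. STC2 lies farthest to the right at 1.51, and SOCS3 and TXNIP are the lowest named genes at -0.71 and -0.69.

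The stability of the calls differed between the IGF genes. IGFBP6 and IGFBP3 lay on either side of the threshold and crossed it with several settings, IGFBP6 being past it in 4 of 15 alternatives and IGFBP3 in 4 of 18. IGFBP4, IGFBP1, IGFBP2 and IGF2 were past it in none of the alternatives run, and IGFBP7 only without I/R+DMSO replicate 1.

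**Figure D5:**
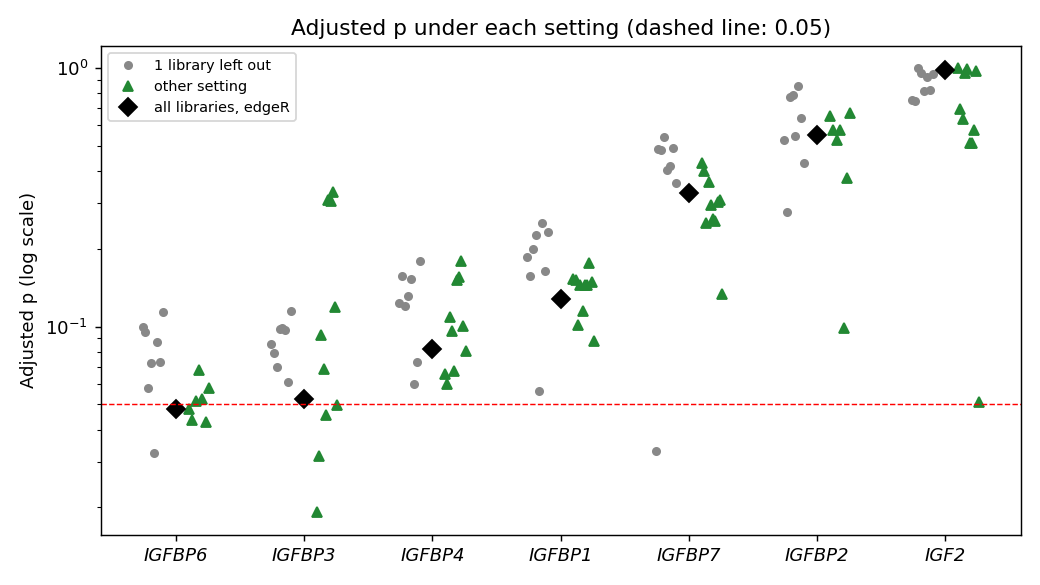
Adjusted p (y axis, log scale) of the 7 tested IGF genes with all libraries in edgeR (diamonds), with 1 library left out (gray circles) and under other settings (green triangles); the dashed line marks 0.05. The points of IGFBP6 and IGFBP3 straddle the line, and those of IGFBP4, IGFBP1, IGFBP2 and IGF2 stay above it.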

How the data were processed

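RNA-seq was analysed for 8 libraries of HuH7 cells, grouped by their labels into I/R+DMSO and I/R+Rk2. The authors prepared libraries with an MGIEasy kit and sequenced them on a BGISEQ platform. The submitters' processing notes list hg38, FastQC 0.11.5, HISAT2 2.2.1 and StringTie 1.3.3, and the read counter, its strand setting and the annotation are not given in the sources used here. The authors deposited raw counts per gene and, in a second table, FPKM, which the authors scaled by gene length and depth. Date-like symbols, 22 in the counts (0.111% of reads) and 27 in the FPKM, were left out.

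Genes that reached 10 counts in 4 or more libraries were tested with edgeR 4.0.16 (R 4.3.3; TMM, robust quasi-likelihood, Benjamini-Hochberg over 12910 genes, group as the only term). Standard errors are the log2 fold change over the square root of F. Single values were compared with exact permutation tests, whose smallest p for 4 against 4 is 0.0286. Alternatives used DESeq2 1.42.0, limma 3.58.1 on log2(FPKM + 1) or log2(FPKM + 0.1), other scalings and filters, a replicate block, a loess curve (span 0.5) against gene length derived from counts and FPKM, and each library left out. Depth per library was 16374082 to 30310479 counts, which limits genes with few counts.

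The text names all 9 IGF genes, up to 5 genes past the threshold per list by smallest p, IGF1R, INSR, IGF2R, IGFBP5, H19 and INS-IGF2, marker genes and the 5 genes most like each of 3 IGF genes. Other genes named that did not pass were chosen after their values were seen. The genes and lists were chosen with earlier results of these data known.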

Additional observations from a re-analysis of the deposited data

How the results depend on the processing

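The count of IGF genes past the threshold, 1 with all libraries, was 2 with DESeq2 and with upper-quartile normalization, 0 with library size only, without a count filter and in the 3 limma fits on FPKM, and 0 to 1 with 1 library left out. The log2 fold change of IGFBP6 missed the threshold with library size only (-1.28), without a count filter (-1.33), after the length correction (-1.22) and in limma's unfiltered fit of log2(FPKM + 1) (-0.37, where the pseudocount shrinks the change of a low gene), and spanned -1.71 to -1.08 with 1 library left out. IGFBP3 passed with DESeq2 (-0.18), upper-quartile normalization (-0.20), at least 50 counts in every library (-0.17) and the length correction (-0.16). IGF2 changed sign around 0 with DESeq2 (-0.000355), upper-quartile normalization (-0.026) and the length correction (-0.13), and spanned -0.0193 to 0.0232 with 1 library left out. IGFBP7 spanned 0.13 to 0.35 with 1 library left out. The other IGF genes kept their direction and their side of the threshold under the alternatives run. The count of IGF system genes, 15, was 10 to 17 under other settings and 11 to 16 with 1 library left out. The cause of these shifts was not tested except where stated. IGFBP6, IGFBP2 and other low genes could not be tested at 50 counts in every library or in the filtered FPKM fits. Same-numbered libraries did not deviate together (correlations -0.01 to 0.08), and only replicate 4 matched its own number best. No pairing by number was thus seen, though low correlations cannot show that the libraries were not prepared in numbered sets. A replicate block gave 1815 calls over all genes against 2352, with 1 IGF gene called, IGFBP6 at -1.42 (adjusted p = 0.0426 in edgeR) and 14 IGF system genes. DESeq2 called 2973 genes and the limma fits on FPKM 970 to 1123.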
